A study of Homo sapiens with 4 samples.

Results

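The annexins were followed here as 10 genes, ANXA1 to ANXA7 and ANXA9 to ANXA11, in the established human cell line DU145, derived from prostate cancer and independent of androgen for growth. The 10 genes were found by symbol in the array's annotation, each by 1 probe set, among 17687 named genes. The family was picked by a measured value, the signal of ANXA1, which was strongly higher on every treated array, so the differences from vehicle are given as a description and support nothing by themselves. Cells had been treated for 48 h with 5 µM No.10-3, with 0.5 µM C-30, with 2 µM C-30 or with vehicle, and each condition was measured on 1 array. The submitters describe both compounds as inhibitors of PSF, the RNA-binding protein encoded by SFPQ. All arrays shared the cell line, the serum-containing medium and the treatment time, and no allele or transgene was named.

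Annexins are cytosolic proteins that bind the acidic phospholipids of membranes when calcium rises, through a conserved core of repeats, while their variable amino-terminal tails bind other proteins. They take part in membrane repair, vesicle traffic, the attachment of actin to membranes and, for annexin A1, the damping of inflammation. Annexin A1 has been studied in prostate cancer because its level differs between normal and malignant prostate epithelium.

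Windows around the gene starts are shown for the members whose signals moved furthest, ANXA1 and ANXA6, and for ANXA2, which shares a TATA box at the same distance from the start with ANXA1. Each runs 5′ to 3′ from 250 bases before the RefSeq start to 50 bases after it in GRCh38.p14, and capitals mark matches to the motifs searched on both strands, which were the TATA box TATAAA, the AP-1 motif TGANTCA, the CRE motif TGACGTCA, the E-box CACGTG, the pentamer CCAAT, the GC box GGGCGG and the C/EBP-ATF letters TGATGNAA.
ANXA1 (chr9:73151615-73151914, strand +): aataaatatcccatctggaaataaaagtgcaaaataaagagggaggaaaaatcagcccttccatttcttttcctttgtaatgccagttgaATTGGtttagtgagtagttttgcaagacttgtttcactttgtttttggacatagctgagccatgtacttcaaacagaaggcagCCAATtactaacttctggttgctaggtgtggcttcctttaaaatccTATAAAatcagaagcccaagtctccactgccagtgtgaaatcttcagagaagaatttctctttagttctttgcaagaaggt
ANXA2 (chr15:60397937-60398236, strand -): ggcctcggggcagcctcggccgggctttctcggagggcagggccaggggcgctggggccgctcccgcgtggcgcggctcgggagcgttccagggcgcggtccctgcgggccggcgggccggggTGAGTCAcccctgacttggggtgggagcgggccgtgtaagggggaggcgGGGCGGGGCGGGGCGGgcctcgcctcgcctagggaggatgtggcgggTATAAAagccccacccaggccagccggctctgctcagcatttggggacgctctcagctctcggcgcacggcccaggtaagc
ANXA6 (chr5:151157730-151158029, strand -): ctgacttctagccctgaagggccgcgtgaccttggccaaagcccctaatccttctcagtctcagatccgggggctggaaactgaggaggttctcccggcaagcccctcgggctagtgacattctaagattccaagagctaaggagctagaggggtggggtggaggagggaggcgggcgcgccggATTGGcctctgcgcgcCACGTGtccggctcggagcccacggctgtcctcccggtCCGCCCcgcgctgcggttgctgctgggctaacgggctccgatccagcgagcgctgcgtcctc

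The ANXA1 window held a TATA box whose first base lay at -31 from the start, and CCAAT matches at -160 and -77. It was poor in G and C, at 37.7%, against a median of 58.7% over 35116 RefSeq windows of the same length. The ANXA2 window, with 76% G and C, also held a TATA box at -31, together with an AP-1 match at -127 and 3 overlapping GC boxes. The ANXA6 window shown held an E-box at -50, a CCAAT match at -66 and a GC box at -12, whereas the other ANXA6 window, at an internal start, held no match. Over the 14 windows of the 10 genes, TATAAA occurred in 4, of ANXA1, ANXA2, ANXA10 and ANXA11, and it occurred in 11.5% of all windows. GC boxes occurred in 7 of the 14 and in 45% of all windows, CCAAT in 4 and 34.6%, the E-box in 2 and 7.26% and the AP-1 motif in 1 and 7.71%. CRE and C/EBP-ATF letters, present in 1.85% and 3.62% of all windows, were absent from the 14. Of the 3 ANXA11 windows, 2 overlap, and a match describes letters and not a bound site.

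Values are log2 RMA signals, in which a difference of 1 is called 2-fold on the scale of the deposited values. The log base was inferred from the range, and the highest signal, 19.9, lies above what log2 scanner intensities usually reach, so the folds may not be those of scanner intensities. Each condition has 1 array, so there is no error and no test, and the precision is limited by that number. As measures of spread, 63 ERCC spike probe sets had a robust SD of the log2 difference of 0.13 for No.10-3 against vehicle, 0.17 for 0.5 µM C-30 against vehicle, 0.27 for 2 µM C-30 against vehicle and 0.15 between the C-30 doses. All genes past a floor of 5.56, the median named probe set, had robust SDs of 0.47, 0.51, 0.60 and 0.41 for the same 4 comparisons. The signal level of the ERCC probe sets, and whether spike RNA had been added, were not examined. Both spreads are therefore yardsticks, and neither is the error of a single gene. The 95th percentile of 612 negative control probe sets, called background below, lay between 7.06 and 7.32. SFPQ differed from vehicle by 0.02, 0.02 and 0.09. The keratin genes KRT8, KRT18 and KRT19 and EPCAM lay above background on all 4 arrays, while the epithelial cadherin gene CDH1 lay within background on all 4. Of 9 leukocyte, endothelial and fibroblast markers, COL1A2 with 0.5 µM C-30 was the only one above background on any array. Their summed signal, on the log2 scale, was 8.42, 8.67 and 8.60 on the treated arrays, against 8.56 with vehicle. In a measurement of bulk RNA, fewer cells that express a gene and less RNA per cell cannot be told apart.

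ANXA1 stood furthest above vehicle among the 10 genes on each treated array, and ANXA6 stood furthest below it. ANXA2, ANXA3 and ANXA5 were also higher on each treated array, by less than 2-fold. ANXA11 was lower on each, ANXA4 was lower with No.10-3 and higher with C-30, ANXA7 lay within the ERCC spread of vehicle, and ANXA9 and ANXA10 were within background on all 4 arrays.

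**Figure D1:**
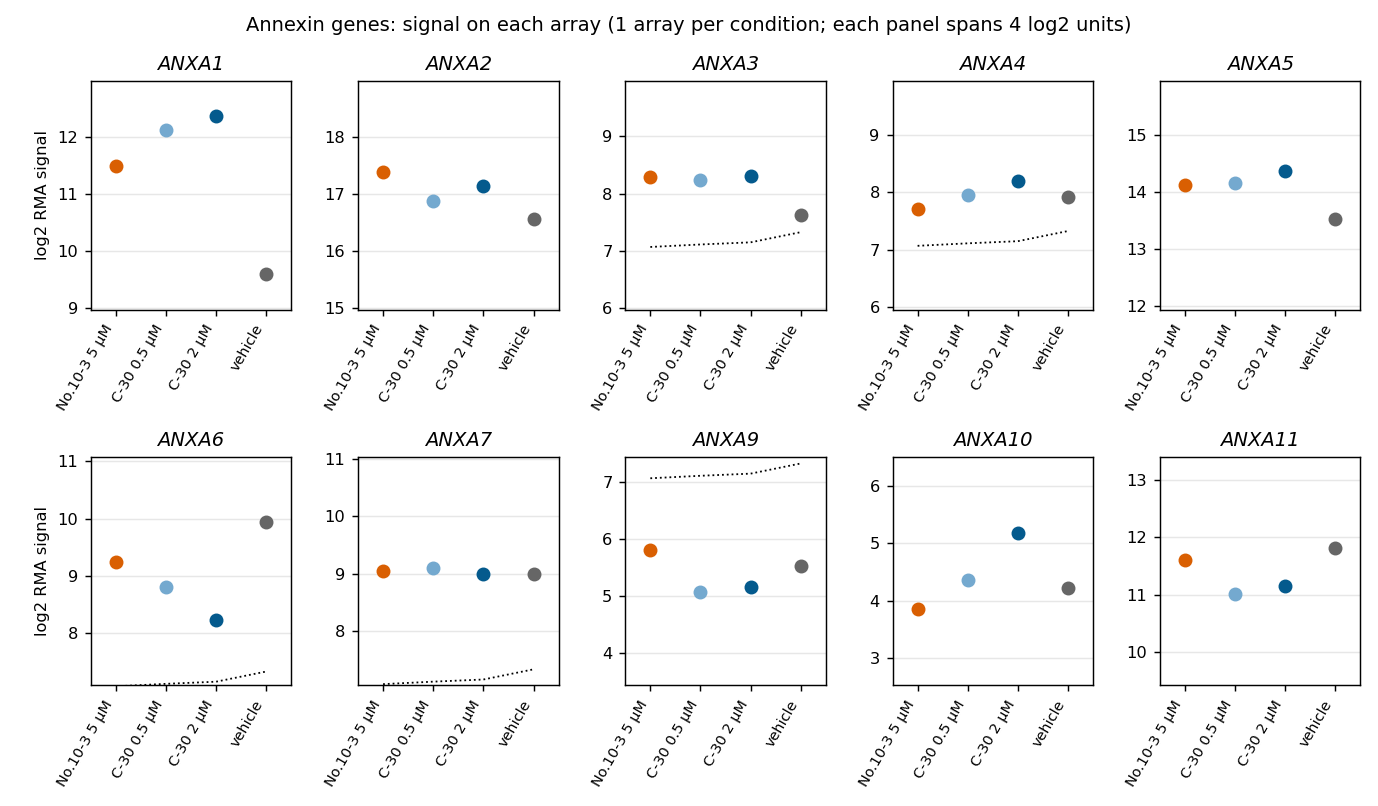
Log2 RMA signal (vertical axis) of each annexin gene on the 4 arrays, 1 point per array; every panel spans 4 log2 units, and the dotted line, where it falls in a panel, is the 95th percentile of the negative controls. ANXA1 sits at 11.49 to 12.35 on the treated arrays and 9.59 with vehicle, ANXA6 runs the other way, and ANXA9 and ANXA10 lie under the dotted line or the level it marks.

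ANXA1 (chromosome 9, 73151865 to 73170393), which encodes the glucocorticoid-induced anti-inflammatory annexin A1, had signals of 11.49 with No.10-3, 12.12 with 0.5 µM C-30 and 12.35 with 2 µM C-30, against 9.59 with vehicle. All 3 treated arrays were above the vehicle array and all 4 signals were far above background. The log2 differences were 1.90 (3.73-fold), 2.52 (5.75-fold) and 2.76 (6.78-fold). They placed ANXA1 20th from the top of 9219 genes past the floor with No.10-3, 3rd of 9267 with 0.5 µM C-30 and 1st of 9319 with 2 µM C-30. These ranks use the values that led to the choice of the family. Between the C-30 doses the signal was 0.24 higher at 2 µM than at 0.5 µM, which placed it 2369th from the top of 9282 genes.

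ANXA2 (chromosome 15, 60347151 to 60397986) encodes the annexin that forms a tetramer with S100A10 at the cell surface and promotes plasmin formation there. It read 17.39 with No.10-3, 16.88 with 0.5 µM C-30 and 17.14 with 2 µM C-30, against 16.57 with vehicle, differences of 0.82, 0.31 and 0.57. All treated arrays were thus higher than vehicle. RefSeq lists 3 related loci, ANXA2P1, ANXA2P2 and ANXA2P3, as transcribed pseudogenes, so the value is uncertain where a probe could read more than 1 of these loci. After quantile normalization the difference with 2 µM C-30 was 0.89.

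ANXA5 (chromosome 4, 121667946 to 121696980), whose product binds exposed phosphatidylserine and serves as the usual stain for apoptotic cells, read 14.12 with No.10-3, 14.16 with 0.5 µM C-30 and 14.36 with 2 µM C-30, against 13.52 with vehicle. The differences were 0.60, 0.63 and 0.84, and all treated arrays were above vehicle. With 2 µM C-30 the difference passed 2-fold after quantile normalization (1.05) and after a lowess correction on signal (1.01). ANXA3 (chromosome 4, 78551770 to 78610447) read 8.29, 8.24 and 8.31 on the arrays of No.10-3, 0.5 µM C-30 and 2 µM C-30, against 7.63 with vehicle. Its differences of 0.67, 0.61 and 0.69 were nearly equal, and its vehicle signal was only just above that array's background of 7.32.

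ANXA6 (chromosome 5, 151100706 to 151157779) encodes the annexin with a duplicated core, which binds late endosomes and affects cholesterol traffic. Its signals were 9.24 with No.10-3, 8.80 with 0.5 µM C-30 and 8.23 with 2 µM C-30, against 9.94 with vehicle. Every treated array was lower, all 4 signals were above background, and the log2 differences were -0.69, -1.13 (2.19-fold lower) and -1.71 (3.27-fold lower). Counted from the lowest gene, ANXA6 was 490th with No.10-3, 144th with 0.5 µM C-30 and 75th with 2 µM C-30. Between the doses ANXA6 was lower at 2 µM than at 0.5 µM by a log2 difference of -0.58. That was beyond the robust SD of all genes in that comparison, 0.41, and placed ANXA6 954th from the lowest of 9282 genes.

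ANXA11 (chromosome 10, 80150889 to 80205808) encodes an annexin with a long amino-terminal tail that tethers RNA granules to lysosomes and is mutated in some motor neuron disease. It read 11.60 with No.10-3, 11.0025 with 0.5 µM C-30 and 11.15 with 2 µM C-30, against 11.82 with vehicle. The differences were -0.22, -0.82 and -0.67, so every treated array lay below vehicle, by less than 2-fold. ANXA7 (chromosome 10, 73375101 to 73414058), the other annexin with a long tail, read 9.05, 9.10 and 8.99 in the same order, against 8.99 with vehicle. Its differences of 0.07, 0.12 and 0.01 were within the ERCC spread, and that with No.10-3 changed sign after quantile normalization (-0.01) and after centring the arrays (-0.02).

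ANXA4 (chromosome 2, 69643808 to 69827112), an annexin of secretory epithelia, read 7.70 with No.10-3, 7.96 with 0.5 µM C-30 and 8.19 with 2 µM C-30, against 7.91 with vehicle. It was lower with No.10-3 by a log2 difference of -0.21 and higher with C-30 by 0.05 and 0.28, of which 0.05 was inside the ERCC spread. ANXA9 (chromosome 1, 150977306 to 150995634) and ANXA10 (chromosome 4, 168092537 to 168187736), an annexin known from gastric epithelium, were within background on all 4 arrays, so their differences cannot be read as expression. ANXA9 read 5.80, 5.08 and 5.16 on the treated arrays in the same order, against 5.53 with vehicle. ANXA10 read 3.84, 4.35 and 5.19, against 4.23 with vehicle, and its difference of 0.96 with 2 µM C-30 lay just inside 2-fold and under the floor.

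**Figure D2:**
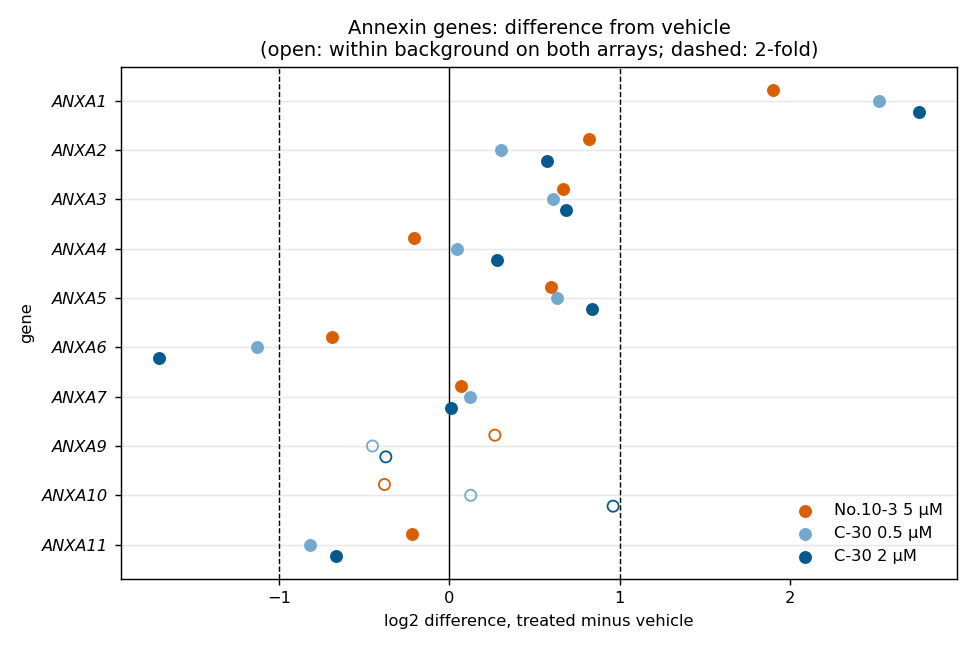
Log2 difference from vehicle (horizontal axis) for each annexin gene, with 5 µM No.10-3, 0.5 µM C-30 and 2 µM C-30 as separate points; open points are within background on both arrays and dashed lines mark 2-fold. ANXA1 lies at 1.90, 2.52 and 2.76, ANXA6 at -0.69, -1.13 and -1.71, and the remaining points lie between the dashed lines.

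Counted over the family, 9 of the 10 genes passed the floor with No.10-3, and 1 of them passed 2-fold upwards and 0 downwards, as 4.36% and 1.32% of all 9219 genes past the floor did. With 0.5 µM C-30, 8 passed the floor, 1 passed 2-fold upwards and 1 downwards, beside 3.4% and 2.77% of 9267 genes. With 2 µM C-30 the counts were again 1 and 1 of 8, beside 4.67% and 6.15% of 9319 genes. The higher gene was ANXA1 each time and the lower gene ANXA6, and nothing is read from these counts because ANXA1 was chosen on them. The median annexin difference was 0.27, 0.21 and 0.43, beside medians over all genes past the floor of 0.05, -0.04 and -0.06. These medians and the 1.5-fold counts below also include ANXA1, so no shift of the family is read from them. The median with No.10-3 was the difference of ANXA9 itself, which was within background, and it was 0.33 with the floor at the background level. Without a floor the medians with No.10-3 and 0.5 µM C-30 were 0.17 and 0.12. At 1.5-fold, 4 annexin genes were higher and 1 lower with No.10-3, beside 14.8% and 8.34% of all genes. The counts were 3 and 2 with 0.5 µM C-30, beside 12.2% and 13.4%, and 3 and 2 with 2 µM C-30, beside 15.1% and 18.5%. The 3 comparisons share the vehicle array. Between the C-30 doses none of 8 annexin genes passed 2-fold either way, beside 1.39% of 9282 genes higher at 2 µM and 2.18% lower, and the median annexin difference was 0.18, beside -0.03 over all genes.

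Read in the order vehicle, 0.5 µM and 2 µM of C-30, the signals of ANXA1, ANXA2, ANXA3, ANXA4 and ANXA5 were higher at each step and those of ANXA6 lower at each step. That is 5 and 1 of the 8 annexin genes past the floor, and 19.6% and 25.8% of 9506 genes past the floor ran in order upwards and downwards. The 5 include ANXA1, whose differences from vehicle led to the choice of the family. For ANXA4 the step from vehicle to 0.5 µM was 0.05, inside the ERCC spread of 0.17 for that comparison. The step between the doses was 0.08 for ANXA3, inside the ERCC spread of 0.15. Those of ANXA5, ANXA4, ANXA1 and ANXA2 were 0.21, 0.24, 0.24 and 0.27, outside that spread but inside the robust SD of all genes, 0.41. ANXA1 lay 2.52 above vehicle at the lower dose already. No.10-3 and C-30 were used at different doses, so their values stand side by side and no difference between the compounds is drawn.

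**Figure D3:**
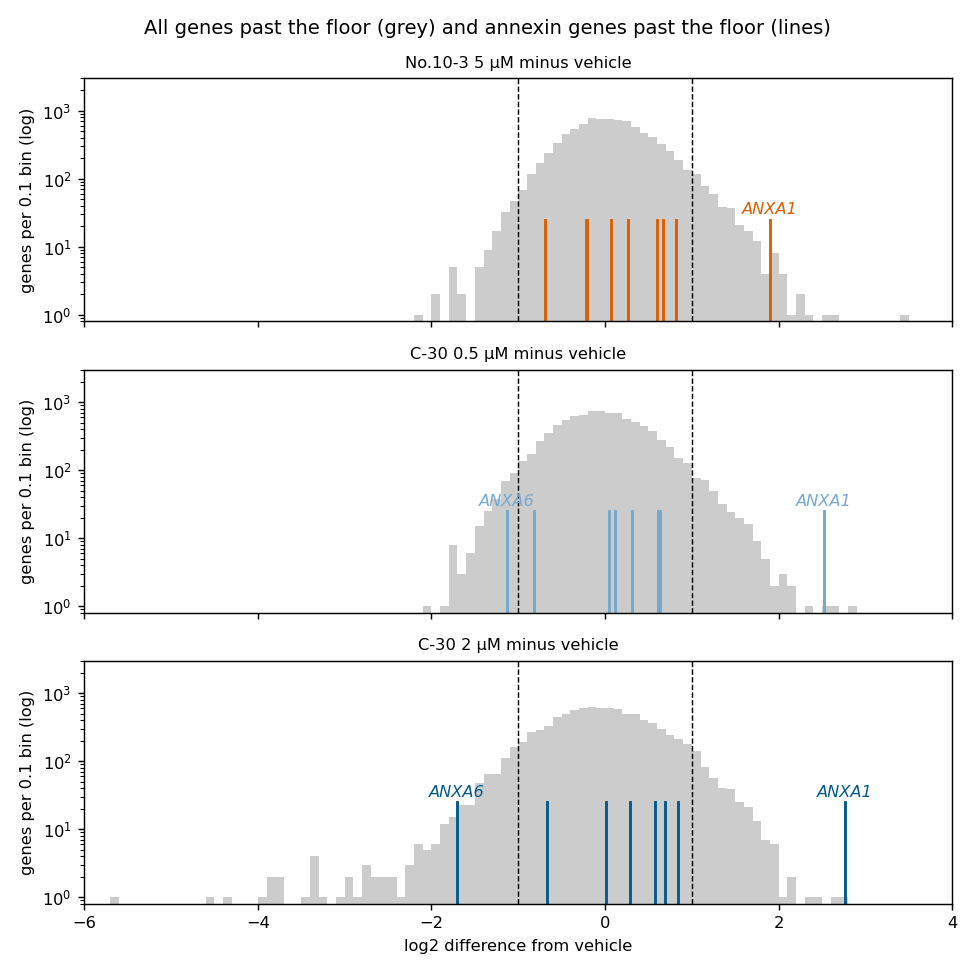
Number of genes past the floor (vertical axis, log scale) per 0.1 of log2 difference from vehicle (horizontal axis), in 1 panel per treated array, with coloured lines for the annexin genes past the floor and dashed lines at 2-fold. ANXA1 lies at the upper edge of all genes with C-30, and with 2 µM C-30 no gene lies above its 2.76.

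The genes around the annexins were read from 5 lists. Of all genes past the floor, 5.68% passed 2-fold in either direction with No.10-3, 6.17% with 0.5 µM C-30 and 10.8% with 2 µM C-30. Annexins A1, A2 and A11 bind S100 proteins, small calcium-binding dimers that bridge annexin-covered membranes. Of 6 S100 partner genes 5 passed the floor against vehicle, none of them past 2-fold on any treated array. After quantile normalization 1 S100 gene passed 2-fold with 2 µM C-30. S100A10, whose protein p11 pairs with annexin A2, read 15.41 with No.10-3, 15.54 with 0.5 µM C-30 and 15.41 with 2 µM C-30, against 15.53 with vehicle, so it stayed within 0.13 of vehicle while ANXA2 lay above it. S100A11, which encodes the partner of annexin A1, differed by 0.28, 0.01 and -0.27, with signals of 13.27, 13.00 and 12.72, against 12.99 with vehicle. These values of S100A10 and S100A11 are given because they are the partners of ANXA2 and ANXA1. The largest mean differences were those of S100A4, at -0.43, -0.42 and -0.93 but within background, and S100A6, at 0.67, 0.30 and -0.10.

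Of 5 genes for other annexin-binding proteins none passed 2-fold, but 1 did with No.10-3 after centring the arrays. AHNAK, which encodes a giant scaffold bound by the complex of annexin A2 and S100A10, differed by 0.12, -0.37 and -0.93, and PLAT, the gene of tissue plasminogen activator, by -0.58, -0.21 and -0.66. PLA2G4A, the gene of the cytosolic phospholipase A2 that annexin A1 inhibits, was within background on all 4 arrays and is named after its values of -0.92, -0.26 and -0.20 were seen. The receptor genes of annexin A1, FPR1, FPR2 and FPR3, did not reach the floor on any array. FPR3 differed by -1.32, -0.56 and -0.68 and FPR1 by -0.15, -0.55 and -0.56, both among signals under background.

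Among 9 membrane repair genes, 8 were measured and 7 passed the floor, of which CAPN1 alone passed 2-fold, downwards with both C-30 doses, beside 2.77% and 6.15% of all genes. CAPN1 encodes calpain-1, a calcium-activated protease that cleaves cytoskeletal proteins at injured membranes. It read 10.06 with No.10-3, 8.73 with 0.5 µM C-30 and 8.58 with 2 µM C-30, against 10.46 with vehicle, differences of -0.40, -1.72 and -1.88. Every treated array was below vehicle, and both C-30 arrays were below it by more than 2-fold. On each treated array 2 of the 7 genes were higher than vehicle and 5 lower. Of all genes past the floor, 54.0% were higher with No.10-3, 46.9% with 0.5 µM C-30 and 46.4% with 2 µM C-30. Of the repair genes inside 2-fold, 3 were chosen after their values were seen. CAPN2, which encodes the sister protease, stood at 0.57, 0.43 and 0.30, and their shared small subunit gene CAPNS1 at -0.44, -0.15 and -0.68. MYOF, the gene of the membrane-fusion protein myoferlin, stood at -0.03, -0.33 and -0.89. The list medians were -0.20, -0.16 and -0.58, beside 0.05, -0.04 and -0.06 over all genes past the floor, and nothing is read from so few genes.

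Of 10 genes of the glucocorticoid receptor and its targets, 8 were measured, and 4, 5 and 4 of them passed the floor with No.10-3, 0.5 µM C-30 and 2 µM C-30. NR3C1, the receptor gene, read 8.48, 8.46 and 7.81 on these arrays, against 7.41 with vehicle, and so passed 2-fold with No.10-3 (1.07) and 0.5 µM C-30 (1.05) and not with 2 µM C-30 (0.40). Its vehicle signal was only just above background, and the difference with No.10-3 was 0.97 after quantile normalization and 0.99 after centring the arrays, both under 2-fold. TSC22D3, the gene of the glucocorticoid-induced leucine zipper, differed by 0.64, 1.22 and 0.59, within background on all 4 arrays. Its vehicle signal of 5.02 was under the floor, so it passed the floor only through the treated arrays. Past 2-fold upwards were thus 1, 2 and 0 genes of this list, beside 4.36%, 3.4% and 4.67% of all genes, and none passed 2-fold downwards. With the floor at the background level TSC22D3 dropped out, and the count with 0.5 µM C-30 was 1. Among those past the floor 4 were higher and 0 lower with No.10-3. The counts were 4 and 1 with 0.5 µM C-30, and 3 and 1 with 2 µM C-30. Of all genes past the floor, 54.0%, 46.9% and 46.4% were higher on these arrays. The list medians were 0.35, 0.40 and 0.46, beside 0.05, -0.04 and -0.06 over all genes past the floor. The 0.40 was the difference of KLF9, a listed gene within background on all 4 arrays. TSC22D3 was among the higher genes each time, and nothing is read from so few genes. The other listed genes above background on all 4 arrays, named after their values were seen, were DUSP1, a phosphatase gene, at 0.03, -0.52 and -0.33, and ERRFI1, the gene of an EGF receptor inhibitor, at 0.05, 0.06 and 0.51. FKBP5 and PER1 of this list and PDCD6IP of the repair list were not analysed here.

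**Figure D4:**
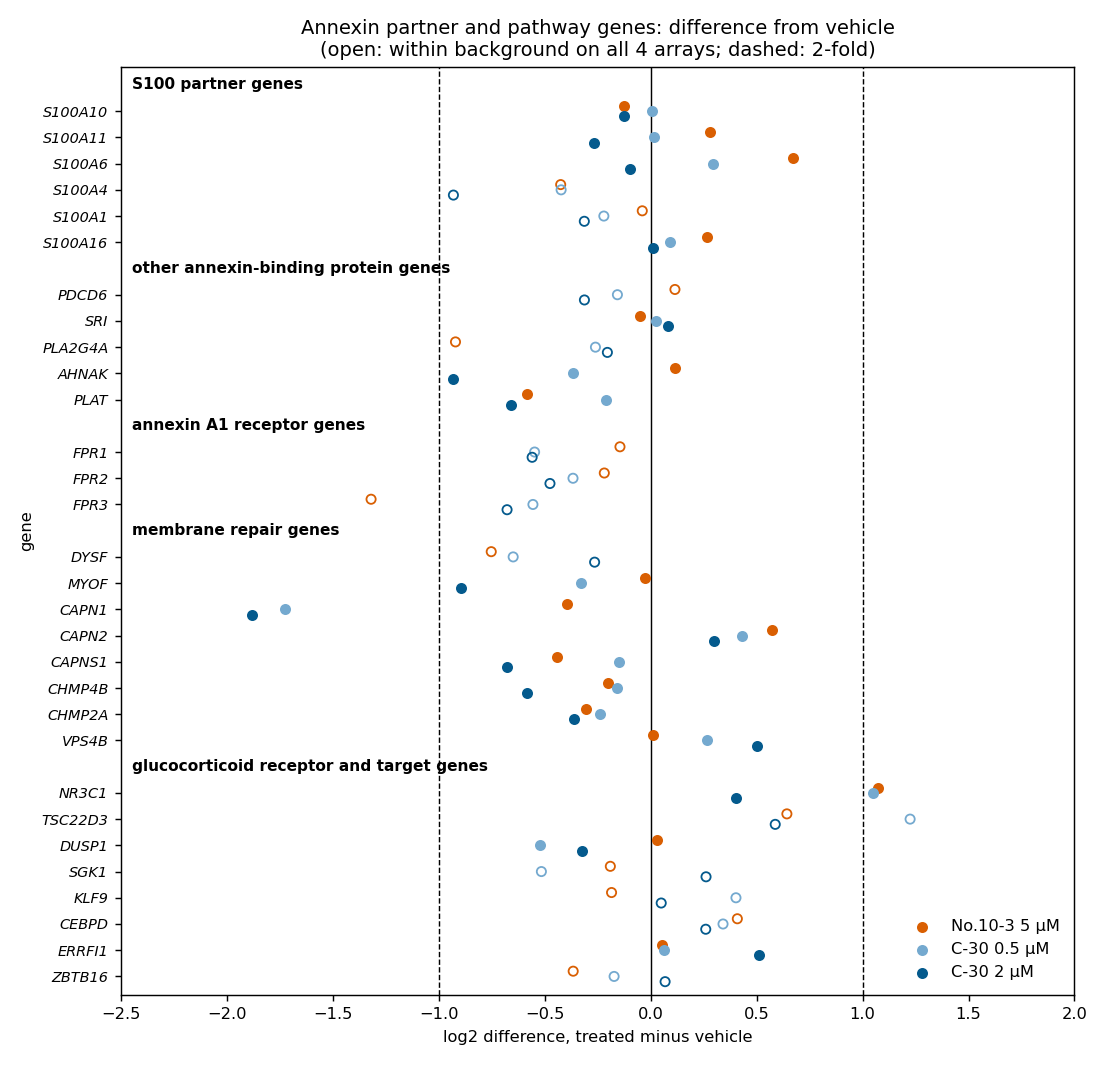
Log2 difference from vehicle (horizontal axis) for the genes of the 5 lists around the annexins, with 3 points per gene for the treated arrays; open points are within background on all 4 arrays and dashed lines mark 2-fold. CAPN1 lies at -1.72 and -1.88 with C-30 and at -0.40 with No.10-3, and NR3C1 passes 1 with No.10-3 and with 0.5 µM C-30.

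The genes whose 3 differences from vehicle lay nearest to those of ANXA1, by Euclidean distance among 8982 genes past the floor in all 3 comparisons, were ZZZ3, NRIP1, MCTP1, CHD1, EIF3E, ANK2, HSP90AA1 and GEN1. Their distances were 1.07 to 1.43 in units of log2 difference, and the ranking uses the ANXA1 values that led to the choice of the family. In 6 of the 8 the vehicle signal was under background, and in MCTP1, ANK2 and GEN1 it was also under the floor, so these 3 passed the floor only through the treated arrays and their exact distances carry little meaning. ZZZ3, a subunit gene of a histone acetyltransferase complex, was nearest, with 1.62, 1.70 and 2.13, with a vehicle signal of 5.69. EIF3E, a translation initiation factor gene, and HSP90AA1, the stress-inducible HSP90 gene, were above background on all 4 arrays. EIF3E read 12.32, 13.22 and 12.94 on the treated arrays, against 11.16 with vehicle, and HSP90AA1 12.69, 13.05 and 12.95, against 11.27 with vehicle. MCTP1 and ANK2 were within background on all 4 arrays, NRIP1 and CHD1 were under it with vehicle, and GEN1 was above it on 1 array. The likeness rests on 4 arrays and every difference contains the same vehicle array.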

How the data were processed

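Biotin-labelled RNA of DU145 cells was hybridised to 4 arrays, per the labels' protocols. The authors deposited log2 signals per probe set, for which the submitters' processing notes name RMA and Affymetrix Expression Console 1.3.0; RMA usually corrects background, quantile-normalizes and summarises probes. The log base was inferred from the range, and the authors' genome build is not given in the sources used here. Among the 24351 probe sets, 17709 carried 1 gene symbol, updated by Entrez identifier. They gave 17687 genes, with the mean taken for 20 genes with several probe sets. The per-sample and series tables differed by at most 5e-05.

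Log2 differences were taken between arrays. A gene entered when the higher value reached the floor of 5.56 and was counted at 2-fold. The counting rule was also run on simulated arrays, made from the vehicle array with noise and known changes added. That run cannot give the error of the measured arrays. The members and lists were chosen with earlier results of these data known. Named genes were all members, list members past 2-fold or the 2 with the largest mean absolute difference in a list with none, and the 8 genes nearest ANXA1, leaving out uncharacterised loci and small RNA, olfactory and immune receptor genes. S100A10, S100A11, CAPN2, CAPNS1, MYOF, PLA2G4A, DUSP1, ERRFI1 and KLF9 were named outside this rule. Alternatives were other floors and thresholds, quantile normalization, a lowess correction (fraction 0.3), centring, the brightest probe set and the series table; a floor at the background level was added after seeing the data. Coordinates and promoter sequences are from RefSeq (GRCh38.p14). Protein sequences were not used here. Python 3.11.15, numpy 2.4.6, pandas 2.3.3, statsmodels 0.14.6 and matplotlib 3.10.9 were used.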

Additional observations from a re-analysis of the deposited data

How the results depend on the processing

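Over the alternatives run, ANXA1 lay between 1.81 and 1.90 above vehicle with No.10-3, between 2.52 and 2.62 with 0.5 µM C-30 and between 2.76 and 2.90 with 2 µM C-30. ANXA6 lay between -1.13 and -1.06 with 0.5 µM C-30 and between -1.71 and -1.62 at 2 µM. Of 200 recomputed differences of single annexin genes, 2 moved by more than the ERCC spread, both of ANXA2 after quantile normalization, to 0.89 for 2 µM C-30 against vehicle and 0.50 between the doses, and 0 of those past 2-fold changed sign. The 200 include the brightest probe set and the series table, which could not move them. Each annexin gene has 1 probe set, and the 2 tables agree to 5e-05. With a threshold of 1.5-fold, 4 annexin genes were higher and 1 lower with No.10-3 (14.8% and 8.34% of all genes), 3 higher and 2 lower with 0.5 µM C-30 (12.2% and 13.4%), and 3 higher and 2 lower with 2 µM C-30 (15.1% and 18.5%). The median annexin difference was 0.17 with No.10-3 and 0.12 with 0.5 µM C-30 without a floor, and 0.18 with No.10-3 after centring the arrays. These counts and medians include ANXA1, on which the family was chosen. After quantile normalization and after the lowess correction 2 annexin genes were at least 2-fold higher with 2 µM C-30, since ANXA5 reached 1.05 and 1.01. Of 180 recomputed counts over the partner lists, 15 moved by more than 1.5 times or to or from 0. The cause of these movements was not tested beyond the change of threshold itself. No paired analysis was possible because each condition has 1 array. With 1 array per condition, no difference of any size has a measured error, and genes within background have no usable level.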

Other observations

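Other annexin-named genes were read after their values were seen. ANXA2R, which encodes a proposed receptor of the annexin A2 complex, read 8.80 with No.10-3, 8.76 with 0.5 µM C-30 and 7.92 with 2 µM C-30, against 9.30 with vehicle. All 4 signals were above background and each treated array was lower. The log2 differences were -0.50, -0.54 and -1.38, so that only 2 µM C-30 passed 2-fold. Of all 9319 genes past the floor, 6.15% were at least 2-fold lower with 2 µM C-30. ANXA8 and its near-identical neighbour ANXA8L1 were within background on all 4 arrays. ANXA8 read 3.48, 3.50 and 3.83 on the treated arrays, against 4.05 with vehicle, and ANXA8L1 read 4.60, 4.57 and 4.68, against 4.66 with vehicle.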
